A study of Mus musculus with 16 samples.

Results

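The proteins of the cytosolic ribosome were examined in mouse hearts lacking the muscle ubiquitin ligases MuRF1 (gene Trim63) and MuRF2 (gene Trim55). Members were chosen by name alone: every non-control probe whose gene name, or current symbol through its accession, begins with Rpl or Rps and a number, or is Rplp0, Rplp1, Rplp2 or Rpsa. S6 kinases and names ending in -ps or -rs were left out. This gave 143 of 41174 probes, or 84 of 27670 genes. Of these genes, 83 were measured, that is, had a probe well above background in the heart channel on at least 4 of the 16 arrays. They comprised 47 large subunit proteins, 32 small subunit proteins, the 3 stalk proteins and Rps19bp1, which fits the name rule but is a binding partner of a ribosomal protein. The gene not measured was Rpl39l, a paralog of Rpl39.

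Ribosomal proteins assemble with ribosomal RNA into a small subunit, which reads the messenger RNA, and a large subunit, which joins amino acids and carries a flexible stalk that recruits translation factors. The genes are among the most highly expressed in any tissue and are usually made in step with each other. Their messenger RNAs start with a run of pyrimidines, the 5′ TOP motif, through which mTOR signalling controls their translation. Most are active in every cell, but Rpl3l is a paralog of Rpl3 that is active in heart and skeletal muscle, and Rps27l and Rpl22l1 are paralogs with their own regulation.

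Each array held 1 heart sample of a 12 week old mouse in the Cy5 channel and a common RNA pool made from entire C57BL/6 pups at postnatal day 1 in the Cy3 channel. The groups were double null (MuRF1 -/- MuRF2 -/-), MuRF1 null MuRF2 het (MuRF1 -/- MuRF2 +/-), MuRF1 het MuRF2 null (MuRF1 +/- MuRF2 -/-) and wild type, each with 4 arrays. All groups were called strain-matched, but the heart donors' strain, their sex and the deleted part of either gene were not given in the sources used here. Whole hearts were sampled, so fewer cells of a type and less RNA per cell cannot be told apart. Levels are log2 ratios of heart over pup RNA, so a level below 0 means less signal from the heart than from the whole pup, and levels of different genes are not compared. A difference is one mean log2 ratio minus another, with the standard error (SE) of the limma fit over all 16 arrays. A gene was called higher or lower at an adjusted p under 0.05, with Benjamini-Hochberg adjustment over all 12331 genes tested.

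The arrays were unequal in brightness. The number of probes well above background in the heart channel was 6028 to 14481 on double null arrays, 6397 to 15058 on MuRF1 null MuRF2 het arrays, 16127 to 17382 on MuRF1 het MuRF2 null arrays and 15165 to 16662 on wild type arrays. Double null 2 and MuRF1 null MuRF2 het 1 were the dimmest. Slides 1 and 3 each held 2 double null and 2 wild type arrays, while slide 2 held all MuRF1 null MuRF2 het arrays and slide 4 all MuRF1 het MuRF2 null arrays, so those 2 genotypes and their slides cannot be told apart. Trim63 lay between -1.04 and -0.39 in double null hearts and between -0.85 and -0.34 in MuRF1 null MuRF2 het hearts, against 1.70 to 2.13 in MuRF1 het MuRF2 null and 2.51 to 2.71 in wild type hearts. Trim55 was not lower in the hearts labelled MuRF2 null: its brightest probe lay between -1.66 and -0.52 in double null and between -1.53 and -1.09 in MuRF1 het MuRF2 null hearts, against -1.61 to -0.44 in MuRF1 null MuRF2 het and -1.90 to -1.57 in wild type hearts, above background on every array. Since the deleted part of Trim55 was not given, a probe outside it would not read the deletion, and the MuRF2 genotypes rest on the labels. The 10 cardiomyocyte markers had array medians of 3.76 to 4.34 in double null, 4.00 to 4.17 in MuRF1 null MuRF2 het, 3.37 to 3.98 in MuRF1 het MuRF2 null and 3.84 to 4.07 in wild type hearts, so every group carried the labelled tissue's markers far above the pup RNA.

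Setting double null against wild type hearts asks what changes when both ligases are missing. Loess normalization fits the ratio to the brightness of each array's spots. After it, 59 of the 83 members were higher in double null hearts, 1 was lower and 23 did not pass. Under median centring, which shifts each array by 1 value, the direction flipped, with 0 higher and 9 lower. Over all genes tested, 10.3% were called higher and 12% lower under loess, and 0.146% higher and 55.8% lower under median centring, so that the share of members called lower there was below that of all genes. The median difference of the members was 0.74 under loess, against 0.0093 for all genes, and -0.79 under median centring, against -0.49 for all genes. Relative to the median of all genes, the members thus stood 0.73 higher under loess and 0.29 lower under median centring (-0.29). Under loess, 82 of the 83 differences were positive, against 6339 of 12331 over all genes. In 64 members all double null arrays with a value lay above all wild type arrays with a value, a separation found in 12.6% of all genes. Rpl3, with 1 double null value, is counted among the 64.

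The values by array show how this difference was made up. Over the 80 members read on all 16 arrays, the median log2 ratio under loess was -0.14, 0.41, -0.50 and -0.35 on the double null arrays and 0.31, -0.76, -0.45 and -0.60 on the MuRF1 null MuRF2 het arrays. It was -0.81, -0.93, -0.88 and -0.71 on the MuRF1 het MuRF2 null arrays, and -0.71, -0.91, -1.09 and -0.87 on the wild type arrays. All double null arrays lay above all wild type arrays, and the 2 dimmest arrays had the highest values of their groups. Double null 2 was the highest double null array for 69 of the 80 members, and MuRF1 null MuRF2 het 1 was the highest of its group for 72. Arrays of near brightness can also be set side by side. Under loess, double null 3, the brightest of its group with 14481 probes above background, read -0.50, and MuRF1 null MuRF2 het 2, with 15058, read -0.76. Wild type 4, with the fewest such probes of its group (15165), read -0.87. Wild type 1, with 15470 and the lowest mean log2 Cy5 signal of its group (7.18), read -0.71. Under median centring the array medians over the 80 members were -0.51, -2.83, -0.59 and -1.08 in double null, against -0.60, -0.16, -0.54 and -0.56 in wild type hearts, so the groups overlapped and the 2 dimmest arrays, at -2.83 and -2.61, were the lowest of all 16. Of the arrays set side by side, double null 3 then read -0.59, wild type 4 -0.56, wild type 1 -0.60 and MuRF1 null MuRF2 het 2 -0.73. Without the 2 dimmest arrays, 66 members were higher and 1 lower in double null than in wild type hearts under loess, with a median difference of 0.55. Of all genes, 14.6% were then higher and 14.7% lower. Without wild type 3, 23 members were higher and 1 lower, against 5.14% and 7.47% of all genes. Within slide 1 alone no gene passed in the limma fit, member or not, and the members' median difference was 0.90. There 53 members had an unadjusted p under 0.05, a count not taken over all genes. Within slide 3 alone 61 members were higher and 1 lower, with a median of 0.61, while 8.62% of all genes were higher and 10.4% lower.

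**Figure D1:**
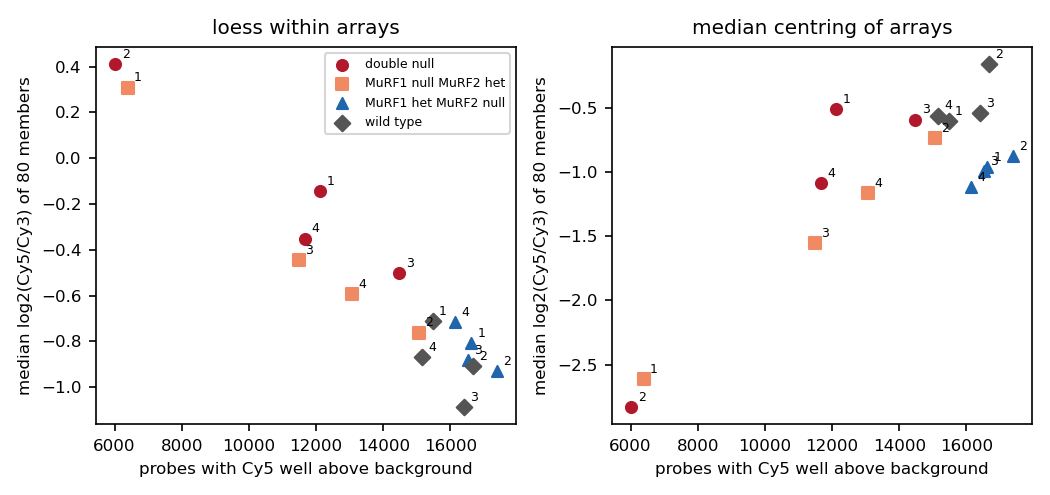
Median log2 ratio (heart over pup RNA) of the 80 members read on all 16 arrays, 1 numbered point per array, against the array's number of probes with Cy5 well above background, after loess (left) and after median centring (right). Under loess the double null arrays sit between -0.50 and 0.41, above the wild type arrays at -1.09 to -0.71, and dimmer arrays have higher medians, whereas under median centring the 2 dimmest arrays lie lowest, at -2.83 and -2.61, and double null overlaps wild type.

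The members are among the brightest probes of the array, with a median log2 Cy5 signal of 11.6 against 7.09 for all genes, and 77 of them (92.8%) fell in the fifth of genes with the highest Cy5 signal. Within the fifth, the members' median difference between double null and wild type hearts was 0.78 under loess, against -0.01 for the other genes of the fifth. Under median centring it was -0.80 for the members, against -1.18 for the other genes of the fifth, so that the members were lower in double null hearts but less so than those other genes. The members are brighter even within the fifth, at a median log2 Cy5 of 11.7 against 9.39 for the 2350 other genes. On each array the median of 74 members minus that of those other genes was -0.60, 0.09, -0.96 and -0.79 in double null and -1.21, -1.40, -1.55 and -1.38 in wild type hearts under loess, and the groups did not overlap. Under median centring it was -0.03, -0.77, -0.59 and -0.48 in double null and -0.71, -0.74, -0.98 and -0.87 in wild type hearts, where double null 2 lay among the wild type arrays and the other 3 double null arrays above them. With each array's brightness as a covariate in the fit, 6 members were higher and 2 lower, with a median difference of 0.14. That brightness, the mean log2 Cy5, was 6.19 to 7.08 on double null and 7.18 to 7.43 on wild type arrays. The groups share no brightness, so brightness and genotype cannot be told apart in that fit. Of all genes, 5.47% were higher and 7.02% lower in that fit, so the members' counts were near or below the shares of all genes.

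Among the members themselves the difference also followed brightness. The correlation across the 83 genes between log2 Cy5 signal and the loess difference was 0.64 for double null minus wild type, 0.75 for MuRF1 null MuRF2 het minus wild type and 0.18 for MuRF1 het MuRF2 null minus wild type. Over all genes tested the same coefficients were 0.016, 0.071 and -0.035. Loess levels the ratio against spot brightness on each array, so values near 0 over all genes follow from it and are no baseline for the members. After median centring the members' coefficients were -0.16, -0.50 and -0.31. These are descriptions over genes measured on the same arrays, and the part of brightness in the differences was not tested.

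**Figure D2:**
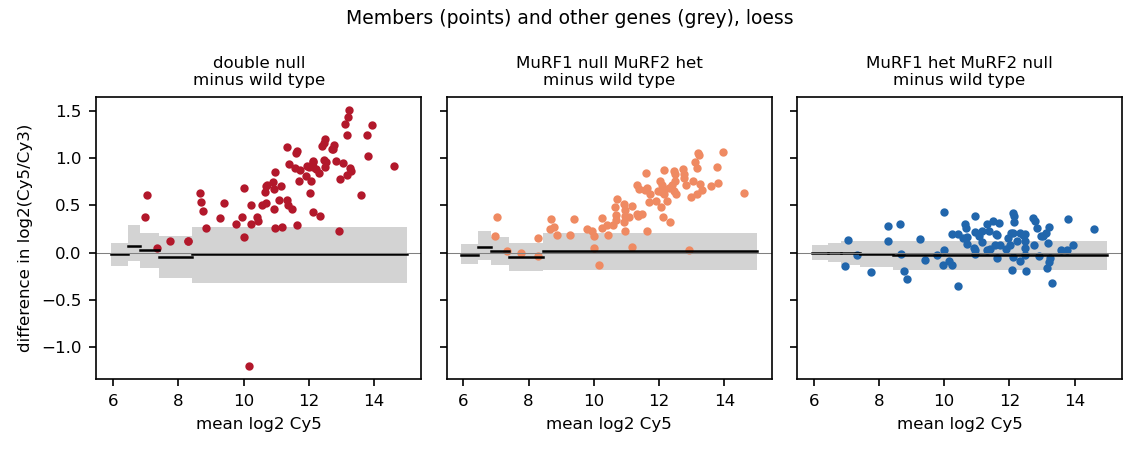
Difference in log2 ratio from wild type under loess against mean log2 Cy5 signal, with 1 point per member, black lines at the median of all other genes in each of 5 brightness classes and grey boxes from their 25th to their 75th percentile. In the double null panel the members' differences are larger at brighter probes (r = 0.64 over 83 genes) with Rpl3l alone below 0; under median centring, not drawn, all are below 0.

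Rpl3l was the 1 member that was lower in double null hearts, and Rpl3 is the protein it replaces in striated muscle ribosomes. The 2 genes were read by 1 kept probe each. The array's probe sequences are shown in mouse 5′ to 3′ orientation. The probes were set against each other and not against the other gene's transcript, so whether either probe reads the paralog was not tested. The capitals mark the longest run of bases that the 2 probes share, 5 bases of 60.
Rpl3: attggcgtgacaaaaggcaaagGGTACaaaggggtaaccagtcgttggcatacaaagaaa
Rpl3l: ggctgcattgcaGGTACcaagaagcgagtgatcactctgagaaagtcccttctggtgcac
Rpl3 is on chromosome 15 and Rpl3l on chromosome 17. Each probe has 2 of 3 forward reading frames without a stop codon.

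Rpl3l stood at 2.84, 1.82, 1.04 and 1.95 in double null hearts and at 2.51, 3.20, 2.95 and 3.27 in MuRF1 null MuRF2 het hearts. It stood at 3.09, 3.02, 2.79 and 3.19 in MuRF1 het MuRF2 null hearts and at 3.19, 3.07, 3.15 and 3.04 in wild type hearts. All 16 hearts had more Rpl3l signal than the pups, and every double null heart lay below every wild type heart, with double null 3 lowest and double null 1 nearest to wild type. The difference between double null (mean 1.91 ± 0.74) and wild type hearts (3.11 ± 0.07, SD, n = 4 each) was -1.20 ± 0.26 (SE), 2.30-fold lower, with a limma adjusted p of 0.00594. Rpl3l was also lower in double null than in MuRF1 het MuRF2 null hearts, by -1.11 (limma adjusted p = 0.00695), although double null 1 at 2.84 lay above MuRF1 het MuRF2 null 3 at 2.79. Its differences from wild type were -0.13 in MuRF1 null MuRF2 het hearts (limma adjusted p = 0.785) and -0.09 in MuRF1 het MuRF2 null hearts (0.924), and neither passed. Against MuRF1 null MuRF2 het hearts the double null difference of -1.07 did not pass (0.101), but it did without double null 1 (-1.38, 0.00579) and without MuRF1 null MuRF2 het 1 (-1.23, 0.0237). Under median centring no member had a positive difference and 55.8% of all genes were lower, so the negative sign of Rpl3l there does not set it apart. The fall in double null hearts was -0.33 with limma adjusted p = 0.646 when the arrays were scaled to a common spread, and -0.80 with 0.263 within slide 1.

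Rpl3, the widely expressed member of the pair, could be read on few double null arrays. The scanner software marked its spot as irregular on double null 1, 2 and 3 and wild type 1, and those values were left out. Double null 4 gave -1.37, against -2.15, -2.02 and -1.96 on wild type 2, 3 and 4. The fitted difference of 0.68 ± 0.15 (limma adjusted p = 0.0082) therefore rests on 1 double null array. With the irregular spots kept, a setting chosen after seeing the data, Rpl3 read -2.17, -1.61, -1.01 and -1.37 in double null and -2.01, -2.15, -2.02 and -1.96 in wild type hearts, with a difference of 0.50 (limma adjusted p = 0.0462) and overlapping groups. On those readings the double null heart with the highest Rpl3l had the lowest Rpl3, and the one with the lowest Rpl3l had the highest Rpl3, a description of 4 hearts. The same 2 hearts were the extremes for Myh7, the slow myosin heavy chain, named here after its values were seen: it read -0.38, 2.81, 3.82 and 3.20 on double null 1 to 4, and -2.48 to -1.75 in wild type hearts. Double null 1 was thus nearest to wild type in all 3 genes.

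**Figure D3:**
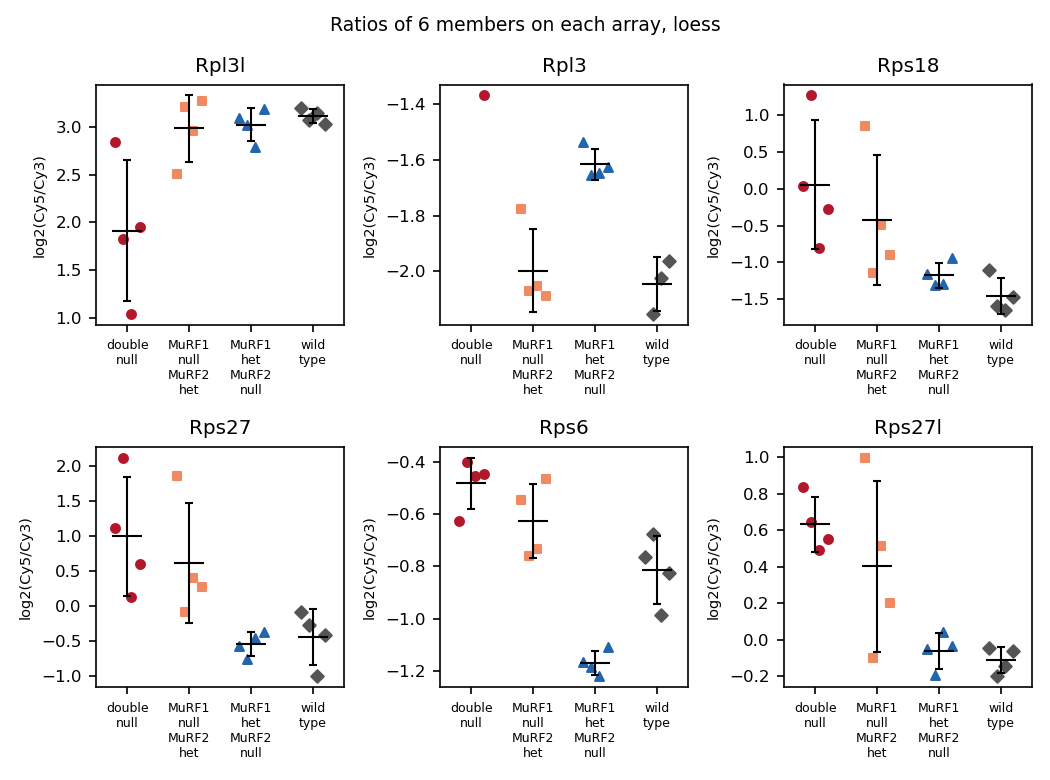
Log2 ratio (heart over pup RNA, loess) on each array for 6 genes, with double null leftmost and wild type rightmost, and with bars at the group mean ± SD where 2 or more arrays have a value. Rpl3l is at 1.04 to 2.84 in double null hearts, below the wild type values of 3.04 to 3.19, Rpl3 has 1 double null value, and Rps18, Rps27, Rps6 and Rps27l are higher in every double null heart than in any wild type heart under loess.

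In the small subunit, 24 of 32 genes were higher in double null than in wild type hearts and none lower under loess, with a median difference of 0.83; in the large subunit 34 of 47 were higher and 1 lower, with a median of 0.64. The rises ran from 0.33 for Rps6 to 1.50 for Rps18, and 15 exceeded 2-fold. The 8 largest rises were those of Rps18, Rps27, Rps12, Rplp0, Rpl37a, Rps7, Rpl12 and Rps3, and all 8 turned negative under median centring, at -0.67 to -0.34. Rps18, a protein of the small subunit's head, stood at 0.03, 1.26, -0.80 and -0.28 in double null hearts, against -1.10, -1.59, -1.64 and -1.47 in wild type hearts. The difference was 1.50 ± 0.40 (2.84-fold, limma adjusted p = 0.0157), and every double null heart lay above every wild type heart, with double null 2 highest. A second Rps18 probe gave 1.07 (limma adjusted p = 0.00846).

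Rps27, a zinc finger protein of the small subunit also called metallopanstimulin, stood at 1.12, 2.12, 0.14 and 0.60 in double null hearts, against -0.09, -0.27, -1.001 and -0.41 in wild type hearts. The groups did not overlap, and the difference was 1.44 ± 0.40 (2.71-fold, limma adjusted p = 0.0193). Rps12, which stood at -0.60, 1.00, -0.89 and -0.79 in double null hearts and -1.50, -1.75, -1.79 and -1.67 in wild type hearts, differed by 1.36 ± 0.38 (limma adjusted p = 0.0212), with double null 2 far above the other 3. Rps7 differed by 1.24 (0.0197) and Rps3, which lines the mRNA entry channel, by 1.16 (0.0207), with 0.48 (0.0285) from a second and dimmer Rps3 probe. In the large subunit, Rpl37a differed by 1.25 (0.0382) and Rpl12, which forms the base of the stalk, by 1.21 (0.0193). In these 4 genes too, all double null arrays lay above all wild type arrays. Leaving out 1 array at a time, Rpl37a ran from 0.77 (without double null 2) to 1.51 and did not pass without double null 1 or 2 or wild type 2, 3 or 4 (limma adjusted p up to 0.105). Without wild type 3, Rps27, Rps12, Rps7, Rpl12 and Rps3 did not pass, at limma adjusted p of 0.056 to 0.0663, nor did Rps12 without wild type 2 (0.0522). Rps18 passed in every such fit, with 1.10 without double null 2.

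Of the 3 stalk proteins, 1 passed. Rplp0, which anchors the stalk, stood at 0.65, 1.76, -0.18 and 0.15 in double null hearts, against -0.41, -0.83, -1.03 and -0.74 in wild type hearts, a difference of 1.35 ± 0.40 (2.55-fold, limma adjusted p = 0.026), and 0.54 and 0.86 on its other 2 probes. It did not pass without double null 1 or 2 or wild type 2, 3 or 4, with differences of 0.96 (without double null 2) to 1.35 and limma adjusted p up to 0.0729. Rplp1, whose protein forms the stalk's tip with Rplp2, stood at 0.19, 2.23, 0.38 and 0.39 in double null hearts and 0.11, -0.10, -0.40 and -0.08 in wild type hearts, a difference of 0.91 that did not pass (0.114) except without MuRF1 null MuRF2 het 1 (0.0419). Rplp2 stood at -0.13, 1.60, -0.29 and -0.09 in double null hearts and -0.52, -0.78, -0.94 and -0.75 in wild type hearts, a difference of 1.02 that did not pass (0.0538) except without double null 3 (0.0299) or MuRF1 null MuRF2 het 1 (0.019). In both genes the groups were separate, and double null 2 alone lay above 1. Rpsa, the small subunit protein first described as a laminin receptor, is a dimmer probe and its arrays were closer together, at -0.51, -0.61, -0.95 and -0.87 in double null and -1.22, -1.16, -1.47 and -1.23 in wild type hearts. It differed by 0.54 ± 0.13 (limma adjusted p = 0.0118).

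**Figure D4:**
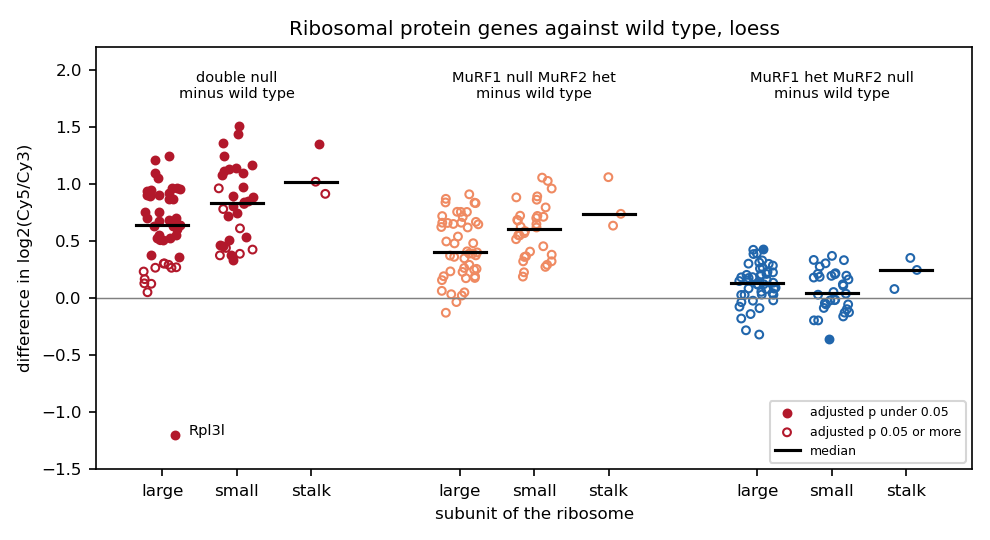
Difference in log2 ratio from wild type under loess for the 47 large subunit, 32 small subunit and 3 stalk genes, in double null hearts, then MuRF1 null MuRF2 het, then MuRF1 het MuRF2 null, with filled points at an adjusted p under 0.05 and a black line at each median. In double null hearts all but Rpl3l, at -1.20, lie above 0, but under median centring, not drawn, the double null differences are below 0.

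Rps6, the substrate of the S6 kinases, had a small but even difference. It stood at -0.62, -0.40, -0.45 and -0.45 in double null hearts, -0.55, -0.76, -0.73 and -0.46 in MuRF1 null MuRF2 het hearts, -1.17, -1.19, -1.22 and -1.11 in MuRF1 het MuRF2 null hearts and -0.76, -0.68, -0.99 and -0.83 in wild type hearts. The double null hearts lay highest and the MuRF1 het MuRF2 null hearts lowest, with each of these groups apart from wild type. Against wild type, Rps6 was higher by 0.33 ± 0.09 in double null hearts (limma adjusted p = 0.0157) and lower by -0.36 ± 0.09 in MuRF1 het MuRF2 null hearts (0.0482), and it differed by 0.19 in MuRF1 null MuRF2 het hearts (0.213). Against MuRF1 het MuRF2 null hearts it was higher by 0.69 in double null hearts (limma adjusted p = 0.000157) and by 0.54 in MuRF1 null MuRF2 het hearts (0.00385). The difference between double null and wild type did not pass without wild type 3 (0.0572), and that between MuRF1 het MuRF2 null and wild type did not pass in 10 of 16 fits that left out 1 array (-0.41 to -0.31, limma adjusted p up to 0.156).

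Paralogs gave mixed results. Rps27l, whose gene is known as a p53 target, stood at 0.84, 0.65, 0.49 and 0.55 in double null hearts, against -0.05, -0.20, -0.14 and -0.06 in wild type hearts, and was higher by 0.74 ± 0.16 (limma adjusted p = 0.00631) without overlap, like Rps27. Rpl36al was higher by 0.36 (0.0194) and Rpl36a by 0.55 (0.0158), but without wild type 3 neither passed (0.0613 and 0.0549), nor did Rpl36al without double null 1 (0.0531) or wild type 4 (0.0542). Rpl22l1 differed by 0.16 (0.36) and Rpl7l1 by 0.05 (0.691), neither passing and both with overlapping groups, while Rpl22 was higher by 0.55 (0.0103) and Rpl7 by 0.63 (0.00415). Rpl39 was higher by 0.87 (0.0112). Rpl7l1, at a mean log2 Cy5 of 7.33, was among the dimmest members, and whether any paralog differs from its partner was not tested.

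Several members serve as reference genes in quantitative PCR. Rpl13a was higher in double null than in wild type hearts by 0.70 (limma adjusted p = 0.00434), with -0.51, -0.29, -0.56 and -0.45 in double null hearts against -1.08, -0.94, -1.43 and -1.16 in wild type hearts. Rpl19 was higher by 0.92 (0.0182; 0.0582 without wild type 3) and Rpl32 by 0.91 (0.0146), beside the 1.50 of Rps18 given above, whereas Rps29 differed by 0.39 with overlapping groups and did not pass (0.259). Under median centring these 5 genes gave -0.72 for Rpl13a, -0.73 for Rpl19, -0.74 for Rpl32, -0.39 for Rps18 and -1.30 for Rps29, so their sign differed between the normalizations.

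The rise with the smallest adjusted p against wild type under loess was not among the largest. Rpl27a, named after its values were seen because it had the smallest adjusted p of all members, stood at 0.32, 0.13, 0.09 and 0.16 in double null hearts and at -0.20, -0.30, -0.11 and -0.20 in MuRF1 null MuRF2 het hearts. It stood at -0.17, -0.36, -0.00 and -0.06 in MuRF1 het MuRF2 null hearts and at -0.39, -0.55, -0.41 and -0.45 in wild type hearts. All double null hearts thus lay above all hearts of the other 3 groups, and the difference from wild type was 0.63 ± 0.09 (limma adjusted p = 0.000354). Rpl5, a part of the 5S ribonucleoprotein particle that binds Mdm2 and also named after its values were seen, stood at -0.82, -0.21, -0.95 and -0.81 in double null hearts and at -1.72 to -1.60 in wild type hearts, and was higher by 0.96 ± 0.17 (limma adjusted p = 0.00152). Its partner in that particle, Rpl11, stood at -0.71, 0.81, -0.90 and -0.73 in double null and -0.37, -0.68, -0.78 and -0.63 in wild type hearts, a difference of 0.23 ± 0.32 with overlapping groups (0.628). These values are under loess, and under median centring no member, Rpl27a and Rpl5 included, had a positive difference.

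To see which members departed from the family rather than moved with it, each array's family median was subtracted, a setting chosen after seeing the data. After loess, 11 members were then higher and 16 lower in double null than in wild type hearts, and after median centring 0 were higher and 2 lower. Of all genes, 0.3% were higher and 78.6% lower on this scale after loess, and 0.235% higher and 2.88% lower after median centring, so the 2 lower members were no larger a share than among all genes. Rpl3l and Rpl11 were the 2 that were called the same way under both normalizations. Relative to the family, Rpl3l was lower by -1.95 (limma adjusted p = 0.00152) after loess and by -1.48 (0.00708) after median centring, and Rpl11 by -0.51 (0.0201) and -0.83 (0.00772). Rps18 was higher than the family by 0.76 (0.00991) after loess, and differed by 0.40 (0.392) after median centring.

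The 5′ ends of the genes were read from RefSeq promoter sequences (GRCm38.p6), which held 63 of the 83 members. A run of 8 or more C or T letters on the gene's strand at the annotated start, as in the 5′ TOP motif, was found in 17 members (27.0%) and in 5.94% of 27025 genes. A run counted as at the start if it held the first transcribed base or a base next to it. The 20 bases on each side of the start are shown for the 2 largest rises and for the member that was lower, with the run at the start in capitals. The windows are Rps18 at chr17:33955646-33955685 and Rps27 at chr3:90213629-90213668, both on the minus strand, and Rpl3l at chr17:24727806-24727845 on the plus strand.
Rps18: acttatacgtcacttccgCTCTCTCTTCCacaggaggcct
Rps27: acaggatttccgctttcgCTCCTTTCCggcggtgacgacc
Rpl3l: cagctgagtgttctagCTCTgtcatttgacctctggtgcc
The run was 11 letters in Rps18 and 9 in Rps27, and both runs hold the first transcribed base. In Rpl3l the 4 letters end just before that base, which is a G, so its transcript does not begin with a pyrimidine at that start. The median difference between double null and wild type hearts was 0.64 in the 17 members with a run of 8 or more and 0.75 in the 46 without, under loess. The run counted in this way was 7 letters in Rpl12, 3 in Rps7, 2 in Rps12 and Rps3 and 0 in Rplp0. The annotated start may differ from the start used in the heart, so that a short run says only what stands at that position.

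In MuRF1 null MuRF2 het hearts, no member passed against wild type in the limma fit. An unadjusted p under 0.05 was found in 55 members and in 2852 of 12331 genes. Of all genes, 0.316% were called higher and 0.714% lower. The members' median difference was 0.54 under loess, against 0.0039 for all genes, and 80 were positive, against 6262 of 12331 genes. Under median centring the median was -1.07, against -0.51 for all genes. There 0 members were called higher and 28 lower, a smaller share than the 59.7% of all genes called lower (0.114% higher). All MuRF1 null MuRF2 het arrays with a value lay above all wild type arrays with a value in 27 members, against 6.43% of all genes. The smallest adjusted p was 0.0587, for Rps15a with a difference of 0.57. The spread of the group was wide, with a family median of 0.31 on the dimmest array and -0.76 to -0.45 on the other 3. Without that array none passed by limma, and the median difference was 0.32. An unadjusted p under 0.05 was then found in 17 members, a count not taken over all genes. With array weights, which gave it 0.19, 46 members were higher and none lower, against 8.9% and 8.3% of all genes. Without MuRF1 null MuRF2 het 2, 27 were higher, against 5.87% of all genes, and without double null 2, which enters through the shared spread, 9 were higher, against 1.67%.

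In MuRF1 het MuRF2 null hearts the family stood close to wild type. The median difference was 0.12 under loess, against -0.0072 for all genes, and -0.54 under median centring, against -0.34 for all genes. Leaving out 1 array at a time moved the loess median between 0.05 (without wild type 3) and 0.18 (without wild type 1), with 0.077 without MuRF1 het MuRF2 null 4. Rpl3 was higher and Rps6 lower than in wild type hearts, while 0.665% of all genes were called higher and 1.34% lower. Rpl3 stood at -1.53, -1.65, -1.65 and -1.63 in MuRF1 het MuRF2 null hearts, above all wild type values, with a difference of 0.43 ± 0.10 (limma adjusted p = 0.0439). It did not pass in 11 of 16 fits that left out 1 array (limma adjusted p up to 0.174), and gave 0.42 (0.222) with irregular spots kept and -0.23 under median centring. These arrays form a slide of their own and were read with a later version of the scanner software, and the part of either in the values was not tested.

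The remaining comparisons set the mutant genotypes against each other. Between double null and MuRF1 null MuRF2 het hearts no member passed in the limma fit, and the median difference was 0.20. An unadjusted p under 0.05 was found in 4 of the 83 members and in 1196 of 12331 genes. Of all genes, 0.162% were called higher and 0.187% lower. That median rested on single arrays: it was -0.0022, with 41 of 83 positive, without double null 2, 0.32 without double null 3, 0.43 without MuRF1 null MuRF2 het 1 and 0.09 without MuRF1 null MuRF2 het 2. Between double null and MuRF1 het MuRF2 null hearts 46 members were higher and Rpl3l lower under loess, with a median difference of 0.60. The 46 include Rps19bp1 (0.32), which is not a ribosomal protein. Of all genes, 13.7% were called higher and 12.7% lower. Under median centring none passed in either direction, where 3.04% of all genes were higher and 4.03% lower. The number higher was 24, 25, 28 and 29 without MuRF1 het MuRF2 null 2, double null 2, MuRF1 het MuRF2 null 1 and MuRF1 het MuRF2 null 3, and without double null 2 the median was 0.40. In those fits, 8.76%, 12%, 9.03% and 10% of all genes were higher. The largest differences were 1.54 for Rps27, 1.40 for Rps7, 1.27 for Rplp0, 1.23 for Rps18 and 1.22 for Rpl37a. Rplp0, Rps18 and Rpl37a did not pass in 5, 6 and 6 of 16 fits that left out 1 array, with differences down to 0.88, 0.83 and 0.74 without double null 2. In MuRF1 null MuRF2 het hearts, set against MuRF1 het MuRF2 null hearts, Rpl7a (0.98, limma adjusted p = 0.0469), Rps6 (0.54), Rpl29 (0.47, 0.0253) and Rpl10a (0.44, 0.0341) were higher and Rpl3 was lower (-0.38 ± 0.09, 0.0272), while 4.59% and 3.94% of all genes were called higher and lower. Leaving out 1 array at a time moved the number called between 1 (without MuRF1 het MuRF2 null 1) and 23 (without MuRF1 null MuRF2 het 2). The shares of all genes called higher and lower were 0.957% and 0.835% without the first array, and 9.6% and 7.49% without the other. Of the 5 genes, Rps6 passed in all such fits, while Rpl7a did not pass in 12 of 16, Rpl10a in 7, Rpl3 in 6 and Rpl29 in 5. The median difference of the members was 0.42, and 0.20 without MuRF1 null MuRF2 het 1. All comparisons with wild type share its 4 arrays, and those with double null share the double null arrays.

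Other genes of translation were read in the same loess fit of double null against wild type hearts, where 10.3% of all genes were higher and 12% lower. Of 20 measured translation factors with 5′ TOP messenger RNAs, 7 were higher and 1 lower, with a median difference of 0.29; among them were Eif3h (1.11, limma adjusted p = 0.000216), Btf3 (0.63, 0.000521) and Eef1b2 (0.86, 0.000534). Of 60 ribosome biogenesis genes, 11 were higher and 1 lower, with a median of 0.08. Rpf2, which brings the 5S particle into the large subunit, was higher by 0.57 (limma adjusted p = 0.00102), and Polr1a, the largest subunit of RNA polymerase I, was lower by -0.91 (0.00245). Of 34 other translation factors 7 were higher and 3 lower, with Eif4g1, the scaffold of the cap-binding complex, lower by -0.66 (0.00274). Of 25 genes of mTOR, S6 kinase and MYC control, shares near those of all genes passed: Myc was higher by 0.52 (0.00501) and 4 were lower, among them Rptor (-0.45, 0.0239) and Tsc2 (-0.84, 0.0259), both part of mTOR complex 1 signalling.

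In MuRF1 null MuRF2 het hearts, Eif3h (0.69) and Eef1b2 (0.57, limma adjusted p = 0.0341 for both) were the genes of these 4 lists that were higher than in wild type, and none was lower. In MuRF1 het MuRF2 null hearts Eif3f (-0.40, limma adjusted p = 0.00607), Eif3e (-0.47, 0.0207), Eif1ax (-0.46, 0.0045) and Max (-0.64, 0.0216) were lower than in wild type, and none was higher.

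Cell type markers were read in the same fit, against the same shares of all genes. Of 10 endothelial markers, 8 were lower, with Flt1 by -1.17 (limma adjusted p = 0.000867), and their array medians ran from 0.08 to 0.38 in double null and from 0.83 to 1.01 in wild type hearts. Of 10 fibroblast markers, 3 were higher, with array medians of -2.17 to -0.85 in double null and -2.06 to -1.94 in wild type hearts. Of 10 macrophage and leukocyte markers 2 were higher, and of 5 measured erythroid markers none passed. Of 10 cardiomyocyte markers Tnnc1 was higher and Myh6 and Ryr2 were lower. With lists this short, the leukocyte, erythroid and cardiomyocyte counts were close to what the shares of all genes give. The part of cell makeup in the ribosomal protein differences was not tested.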

How the data were processed

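Heart RNA (Cy5) was set against pooled pup RNA (Cy3) on 16 two-colour Agilent 4x44K arrays, 4 for each of 4 genotypes, and the labels call the replicates biological. Per the labels' protocols, the amplified input was 50 ng of total RNA. That text names Cy3 only, and the channel entries were followed. Per the file headers, the authors extracted spots with Feature Extraction 9.1.3.1 (12 arrays) or 9.5.3.1 (4 MuRF1 het MuRF2 null arrays). The deposited mean and background intensity of each channel, in linear units, were used, together with the deposited log10 ratio and the series' log2 values, which track the software's log ratio centred per probe, as alternatives. The build behind the probe design: not given in the sources used here.

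Background was corrected by normexp (offset 50), control spots and irregular spots were left out, and log2(Cy5/Cy3) was normalized by loess within each array. Probes well above background in Cy5 on at least 4 arrays were kept (16810 probes, 12331 genes), with the brightest probe for each gene. Two-sided limma tests (limma 3.58.1, R 4.3.3, the data.table package, version 1.17.8, Python 3.11.15, pandas 2.3.3, matplotlib 3.10.9) were fitted over all arrays and checked on simulated data. The probe used for each member was saturated on no array in Cy5, and saturation in Cy3 was not checked. Of 32 members with several probes, 30 moved in 1 direction in double null against wild type, and none was called both ways.

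Genes named in the text are Rpl3, Rpl3l, the stalk proteins, Rpsa, Rps6, paralog pairs, PCR reference genes, the 8 largest rises and falls that passed against wild type (5 in other comparisons), and from other lists up to 3 with the smallest p. Others were named after their values were seen. The members and lists were chosen with earlier results of these data known. Same-numbered replicates did not deviate together (correlations of -0.612 to 0.365, 9 of 24 over 0.1), so no block was used. Names came from RefSeq accessions where they matched (22951 probes), otherwise from symbols or the array file. The number of arrays limits the precision, and probe signal over background stands in for depth.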

Additional observations from a re-analysis of the deposited data

Results flagged for a closer look

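Of 114 groups of 4 arrays tested, 8 held 1 array far from the other 3, with a gap above Dixon's critical value, and chance alone gives about 1 in 20. 6 of these lay on the 2 dimmest arrays. On double null 2, Rps12 was 1.00 with the others at -0.89 to -0.60, Rplp1 was 2.23 with the others at 0.19 to 0.39, and Rplp2 was 1.60 with the others at -0.29 to -0.09. On MuRF1 null MuRF2 het 1, Rplp1 was 1.81 with the others at 0.07 to 0.10, Rps29 was 0.64 with the others at -0.25 to -0.14, and Rpl3 was -1.78 with the others at -2.09 to -2.05. On MuRF1 het MuRF2 null 4, Rpl12 was -0.81 with the others at -1.14 to -1.09, and Rps3 was -0.53 with the others at -0.80 to -0.76. All 8 were high values, and the part of array brightness in them was not tested.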

How the results depend on the processing

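The direction of the family depended on the normalization, and the cause was not tested. Counts are of members higher plus lower. Under median centring 9 were called in double null against wild type (all lower), 28 in MuRF1 null MuRF2 het, 1 in MuRF1 het MuRF2 null, and 0 when double null or MuRF1 null MuRF2 het hearts were set against MuRF1 het MuRF2 null, with medians of -0.79, -1.07 and -0.54 against wild type in that order of groups. Of all genes, 55.8%, 59.7% and 20.5% were lower in those 3 comparisons, so the members' shares lay below those of all genes. Median centring gave double null differences of -0.81 (Rpl10), -0.53 (Rpl12), -0.72 (Rpl13a), -0.73 (Rpl19), -0.95 (Rpl22), -1.21 (Rpl22l1), -0.54 (Rpl3), -0.74 (Rpl32), -0.98 (Rpl36a), -0.77 (Rpl36al), -0.67 (Rpl37a), -0.74 (Rpl39), -1.04 (Rpl7), -0.56 (Rpl7l1), -0.59 (Rplp0), -1.12 (Rplp1), -0.93 (Rplp2), -0.54 (Rps12), -0.39 (Rps18), -0.34 (Rps27), -0.64 (Rps27l), -1.30 (Rps29), -0.53 (Rps3), -1.07 (Rps6), -0.61 (Rps7) and -0.54 (Rpsa). It gave -0.23 for Rpl3 in MuRF1 het MuRF2 null against wild type, and -0.22 (Rpl10a), -0.16 (Rpl29), -0.15 (Rpl7a) and -0.25 (Rps6) in MuRF1 null MuRF2 het against MuRF1 het MuRF2 null. With Cy5 brightness as a covariate the counts against wild type were 8 (double null), 1 (MuRF1 null MuRF2 het) and 8 (hearts het for MuRF1), with 5 in double null against MuRF1 null MuRF2 het, 12 in double null against MuRF1 het MuRF2 null, and 4 (1 higher, 3 lower) in MuRF1 null MuRF2 het against MuRF1 het MuRF2 null. Against wild type that fit called 5.47%, 0.268% and 3.93% of all genes higher and 7.02%, 0.146% and 5.91% lower, in that order. In the other comparisons it called 1.01%, 9.32% and 3.44% higher and 1.34%, 10.2% and 3.88% lower. The members' medians were 0.14 in double null and -0.04 in MuRF1 null MuRF2 het, and Rpl22l1 was -0.13, Rplp1 -0.27, Rplp2 -0.08 and Rps29 -0.30 in double null. Brightness did not overlap between double null and wild type arrays, so that fit cannot tell it apart from genotype there. Scaling between arrays called 17 in double null and 0 in MuRF1 het MuRF2 null against wild type, 1 in double null against MuRF1 null MuRF2 het, 19 in double null against MuRF1 het MuRF2 null, and 1 between the hearts with 1 allele. Of all genes, scaling called 6.57%, 0.243%, 0.519%, 11.1% and 2.88% higher and 8.88%, 0.511%, 0.43%, 11.3% and 3.18% lower, in that order. With scaling, Rpl22l1 was -0.12 in double null, while Rpl3l was 0.75 in MuRF1 null MuRF2 het hearts and reached 0.00 in MuRF1 het MuRF2 null. The Cy5 channel alone gave medians of 0.42 in double null and -0.01 in MuRF1 het MuRF2 null, with 13 called in the last, 5 in double null against MuRF1 null MuRF2 het and 37 in MuRF1 null MuRF2 het against MuRF1 het MuRF2 null. In the comparisons with those counts, 2.12%, 1.17% and 6.85% of all genes were higher and 2.87%, 1.33% and 8.1% lower.

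Within slide 1 none was called in double null by limma (53 at an unadjusted p under 0.05, not counted over all genes). The median there was 0.90, and within slide 3 there were 61 higher and 1 lower. Of all genes, none was called within slide 1, and 8.62% were higher and 10.4% lower within slide 3. Array weights called, against wild type, 46 in MuRF1 null MuRF2 het hearts and 15 in MuRF1 het MuRF2 null hearts, 5 in double null against MuRF1 null MuRF2 het and 35 between the hearts with 1 allele, with Rpl3l 0.01 in MuRF1 null MuRF2 het. Of all genes, these weights called 8.9%, 10.6%, 4.57% and 14.6% higher and 8.3%, 13.3%, 5.48% and 10.8% lower, in the same order. Without the 2 dimmest arrays, chosen after seeing the data, the same member counts were 2, 9, 5 and 9, with Rpl3l 0.03. Then 0.478%, 3.63%, 1.82% and 5.69% of all genes were higher and 0.6%, 4.88%, 2.08% and 4.76% lower. The scanner software's own log ratio, like the series matrix values, called 0 in MuRF1 het MuRF2 null against wild type, 1 in double null against MuRF1 null MuRF2 het and 1 between the hearts with 1 allele, with Rpl3l 0.11 in MuRF1 null MuRF2 het. Every probe on its own called 1 in MuRF1 null MuRF2 het and 10 between the hearts with 1 allele, and the mean over probes called 1 in MuRF1 null MuRF2 het. Over all kept probes, 4.27% were higher and 4.33% lower between the hearts with 1 allele. In MuRF1 het MuRF2 null against wild type, 1 was called with irregular spots kept (chosen after seeing the data), 1 without background correction, 1 with the strict filter, 15 with only the 2 groups, and 0 with the replicate block, under which double null had 56 higher, 54 of them among the 59, and 1 lower. With only the 2 groups, 7.4% of all genes were higher and 9.51% lower in MuRF1 het MuRF2 null. With the replicate block, 8.75% were higher and 10.6% lower in double null.

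Leaving out 1 array at a time gave 24 to 69 called in double null (24 without wild type 3), 0 to 27 in MuRF1 null MuRF2 het (27 without MuRF1 null MuRF2 het 2), and against wild type 0 to 3 in MuRF1 het MuRF2 null. Without wild type 3, 5.14% of all genes were higher and 7.47% lower in double null. Without MuRF1 null MuRF2 het 1, which gave the 69, these shares were 15.3% and 14.6%. Leaving out 1 array also gave 0 to 5 in double null against MuRF1 null MuRF2 het, 25 to 59 in double null against MuRF1 het MuRF2 null (25 without MuRF1 het MuRF2 null 2) and 1 to 23 between the hearts with 1 allele. Rpl7l1 ran from -0.03 to 0.10 in double null, and Rpl3l from -0.23 to 0.03 in MuRF1 null MuRF2 het.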
